A study of Mus musculus with 2 samples.

Results

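Steady macrophages are the nuclei of tumour-associated macrophages (TAMs) that carried few transcripts of stress, resident-type, Gpnmb-type or Mmp12 genes. There were 529 of them among 1115 macrophage nuclei and 1838 barcodes in all. They were chosen by counts of unique molecular identifiers (UMIs, 1 per captured RNA molecule), so the genes of the rule describe the choice and are no finding. A macrophage nucleus had 1000 or more UMIs, at most 5% of them from mitochondrial genes, 3 or more UMIs of Csf1r, Adgre1, Mertk, Ptprc, C1qa, C1qb and C1qc together, and under 1000 CPM (counts scaled to a fixed total) of Epcam, Krt8, Krt18, Cdh1 and Elf5 together. A steady nucleus also had at most 2 UMIs of F13a1, Mrc1, Cd163, Lyve1 and Retnla, at most 1 of Gpnmb, Pdpn and Pde10a, at most 2 of Mmp12, and at most 5 of the stress genes Hsph1, Fosb, Nr4a3, Atf3 and Jun. The other 586 macrophage nuclei are the comparison group: 237 were over the stress limit only, 173 over the resident limit only, 58 over the Gpnmb or Mmp12 limits only, and 118 over several.

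The nuclei came from mammary tumours of 2 samples, MYC-PyMT mice and control-PyMT mice, all carrying the polyoma middle T oncogene that drives the tumours and all backcrossed to B6. MYC-PyMT mice also had S100a8-cre, a recombinase driven by a gene of neutrophils and their precursors, and a cre-dependent MYC allele at Rosa26. Both groups were lethally irradiated at 7 weeks of age and received marrow from donors with Fcgr1-cre and a cre-dependent H2B-mCherry reporter, went onto a low protein diet 2 weeks later, and were killed after 6 weeks of it. Per the labels, the MYC allele belongs to the recipients and the reporter to the donor marrow. TAMs were sorted as CD45, F4/80 and Vcam positive cells without SiglecF, Ly6G, B220 or Ly6C, and their nuclei as mCherry and SYTO9 positive and CD11b negative. The number of animals behind each sample is not given in the sources used here.

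The matrix pools 2 wells, told apart by the barcode ending, and nothing in the files or labels maps a well to a genotype. No comparison of MYC-PyMT with control-PyMT is therefore made, and values are given by well unless they are said to be pooled, apart from those of epithelial nuclei, which are always pooled. Each well is 1 library, so no test was run on any difference. Intervals are exact 95% intervals and cover counting error only. Nuclei were chosen on the counts that are compared, so each ratio of steady over other nuclei describes how 2 chosen sets differ.

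Macrophages live in tumours in several states. Transforming growth factor beta (TGF-beta) binds the receptor pair Tgfbr2 and Tgfbr1, which signals through Smad2, Smad3 and Smad4, while Smad7, Ski and Skil restrain the signal. In microglia, the macrophages of the brain, this pathway is known to maintain P2ry12 and Tmem119, and Cx3cr1, the receptor for fractalkine, marks many tissue macrophages. Stressed or stimulated macrophages switch on immediate early genes such as Fos and Egr1, heat shock chaperones, and inflammatory genes under the transcription factor NF-kB. Antigen presentation to CD4 T cells uses MHC class II molecules, whose genes are switched on by Ciita.

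The 2 wells stood apart in steady nuclei and in other nuclei alike. Xist, the RNA of the inactive X chromosome, had 2630 UMIs in steady nuclei of well 1 and 4 in those of well 2, while the Y-linked gene Uty had 0 and 74. Steady nuclei made up 438 of 776 macrophage nuclei in well 1 (56.4%, 52.9 to 60.0%) and 91 of 339 in well 2 (26.8%, 22.2 to 31.9%). Well 1 thus gave 82.8% of steady nuclei, against 57.7% of other nuclei, and the other nuclei were of different kinds in each well. In well 1, 205 of 338 were over the stress limit only, and in well 2, 136 of 248 were over the resident limit only. For this reason a ratio within well 1 mainly sets steady nuclei against stressed ones, and a ratio within well 2 mainly against resident-type ones. Of the barcode sequences, 9 occurred in both wells, and 0 of these were macrophage nuclei. Doublet calling by Scrublet marked 1 of 1092 nuclei in well 1 and 2 of 397 in well 2, and 0 steady nuclei. In well 1 that share was 0.0916%, too low to count as a working doublet call.

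Steady nuclei were somewhat shallower than the rest. Pooled over wells, their median depth was 2834 UMIs (range 1002 to 12066), against 3397 in other macrophage nuclei, where the deepest held 46519. Summed, steady nuclei held 1415604 UMIs in well 1 and 252036 in well 2. By well, the medians were 2907 against 3314 UMIs in well 1, and 2443 against 3590 in well 2. A shallow nucleus meets an upper limit on UMIs more easily, so depth bears on membership. With the limits scaled to depth, 481 nuclei met the rule, 460 of them among the 529. Pooled over wells, the median mitochondrial share was 0.0485% in steady nuclei and 0.0323% in other nuclei.

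Pooled over wells, the stress set of the rule had a median of 1 UMI in steady nuclei and 8 in other nuclei, and 48.2% of steady nuclei held none of its transcripts, against 15.2% of other nuclei. At the limit, also pooled, 22 nuclei sat just inside with 5 UMIs and 18 just outside with 6. For the resident set, 30 nuclei had 2 UMIs and 22 had 3. For Mmp12, 23 had 2 and 7 had 3, and for the Gpnmb set 19 had 1 and 5 had 2. The plot of stress UMIs against depth shows no gap at the limit, so the steady nuclei are the low end of a range.

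**Figure D1:**
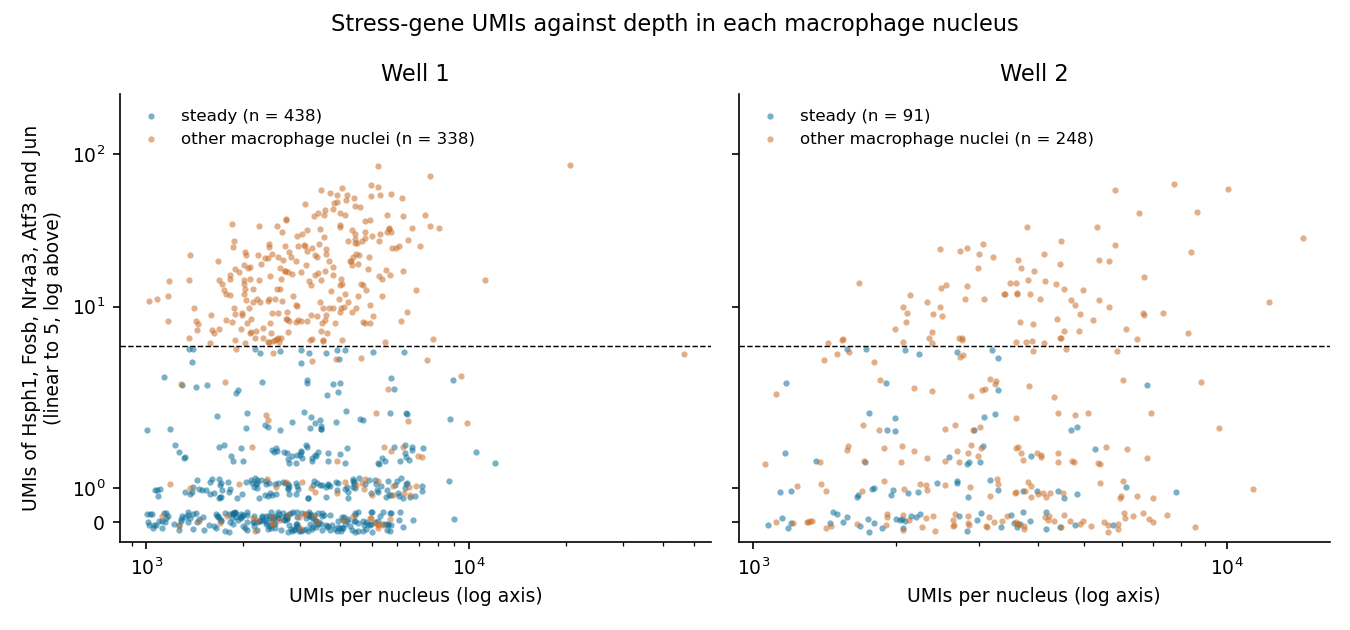
Each point is 1 macrophage nucleus, by its UMIs on a log axis and its UMIs of the 5 stress genes, with the limit dashed and points jittered. Steady nuclei (438 in well 1, 91 in well 2) lie at 5 or fewer stress UMIs, and other nuclei under the line exceed another limit.

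The name macrophage fitted the markers. The 19 macrophage genes outside the rule summed to 4232 CPM in steady nuclei of well 1 and 449 CPM in 161 epithelial nuclei. Epithelial nuclei were those over the epithelial limit that also had fewer than 3 UMIs of the macrophage set. Low levels of macrophage genes in them thus follow in part from that choice. In steady nuclei of well 1 Spi1, the myeloid transcription factor PU.1, had 336 CPM, Sirpa, an inhibitory receptor, 774, and Cybb, the NADPH oxidase subunit, 670. Sums for markers of other blood and stromal cells were far below the macrophage sum, though some were as high as single macrophage genes such as Cd68 and Fcgr1. In steady and other nuclei of well 1, T cell markers summed to 50.9 and 23.6 CPM, B cell markers to 62.9 and 32.3, NK cell markers to 4.95 and 3.94, and fibroblast markers to 7.77 and 8.66. Dendritic cell markers summed to 72.1 and 39.4 CPM, neutrophil markers to 78.4 and 118, endothelial markers to 24.0 and 35.4, and mast cell markers to 28.3 and 47.2. The lists measured at all rested mostly on 1 gene each: Skap1, Ighm, Batf3, Csf3r, Pecam1 and Kit. The dendritic cell genes Flt3, Xcr1 and Zbtb46 had 1, 2 and 3 UMIs in the steady nuclei of well 1, and the T cell gene Cd3e had 1. Skap1 was seen in only 3 of these nuclei, 1 of which held 51.2% of its UMIs, and the T cell gene Bcl11b in 3. The T cell genes Cd3d, Cd3g, Cd8a and Themis were seen in 1 nucleus each. Whether a few members are T cells or mixed nuclei was not tested. Epithelial RNA was present: the 14 epithelial markers summed to 1929 CPM in steady and 2550 CPM in other nuclei of well 1, mostly Trps1. Their ratio of 0.757 ranged up to 1.126 under other settings, 3 of 9 of which put it above 1, so no direction is given. A single other nucleus of 46519 UMIs held 19.6% of the Trps1 UMIs of its group. Csn3, a milk protein gene, had 327 CPM in steady and 405 CPM in other nuclei of well 1. At equal depth (each nucleus thinned to 1000 UMIs), 28.5% of steady and 29.0% of other nuclei in well 1 held a Csn3 UMI. The part of this RNA in the ratios below was not tested.

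The 5 genes given as markers of steady nuclei were together at 4205 CPM in steady nuclei of well 1, against 2916 CPM in other nuclei (ratio 1.44, 1.384 to 1.502), and at 2623 CPM in steady nuclei of well 2, against 895 CPM in other nuclei (ratio 2.93, 2.64 to 3.25). Pooled over wells the sums were 3965 and 2049 CPM (ratio 1.94, 1.86 to 2.01). Epithelial nuclei had 212 CPM. The pooled ratio also depends on the unequal parts that the wells supply to each group. Well 1, where both sums were higher, gave 82.8% of steady and 57.7% of other nuclei. In well 1 the median gene had a ratio of 1.14 (log2 0.19), and relative to it the marker sum stood at 1.26. Scimp, Minar1 and Cx3cr1 were past 1.5-fold there, as were 16.6% of all genes, and relative to the median gene only Minar1 was. In well 2 the median gene had a ratio of 1.01, and pooled 1.08.

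Tgfbr1, the signalling receptor for TGF-beta (chromosome 4, 47353222 to 47414931, plus strand, GRCm38), carried most of the sum. It had 3468 CPM in steady nuclei of well 1, against 2454 in other nuclei (ratio 1.41, 1.35 to 1.48), and 2139 CPM in steady nuclei of well 2, against 709 in other nuclei (ratio 3.02). At equal depth 89.95% of steady nuclei in well 1 held a Tgfbr1 UMI, against 79.9% of other nuclei and 22.4% of epithelial nuclei. Tgfbr1 was thus seen in most steady nuclei even at this depth.

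Cx3cr1, the fractalkine receptor (chromosome 9, 119901616 to 120069879, minus strand), had 475 CPM in steady nuclei of well 1, against 305 in other nuclei (ratio 1.56, 1.37 to 1.77), and 405 CPM in steady nuclei of well 2, against 159 in other nuclei (ratio 2.55). At equal depth 30.8% of steady and 24.9% of other nuclei in well 1 held a Cx3cr1 UMI, against 1.86% of epithelial nuclei. Steady nuclei were the higher group in both wells.

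Scimp, a membrane adaptor of antigen-presenting cells that couples to MHC class II and Toll-like receptors (chromosome 11, 70790932 to 70812586, minus strand), had 157.5 CPM in steady nuclei of well 1, against 96.8 in other nuclei (ratio 1.63, 1.30 to 2.04). In well 2 it had 18 UMIs in steady and 21 in other nuclei, together under the 50 UMIs asked of a gene elsewhere. Minar1, a membrane protein that binds Notch2 (chromosome 9, 89587216 to 89623125, minus strand), had 62.2 CPM in steady and 32.3 CPM in other nuclei of well 1 (ratio 1.93, 1.32 to 2.86), but only 2 and 5 UMIs in well 2. Lpar3, a receptor for lysophosphatidic acid (chromosome 3, 146220963 to 146286186, plus strand), had 41.7 CPM in steady and 28.3 CPM in other nuclei of well 1, where the interval of the ratio (0.956 to 2.29) includes 1, and 0 UMIs in both groups of well 2. Minar1 and Lpar3 thus had too few UMIs in well 2 to compare. At equal depth 3.20% of steady and 3.25% of other nuclei in well 1 held a Lpar3 UMI.

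**Figure D2:**
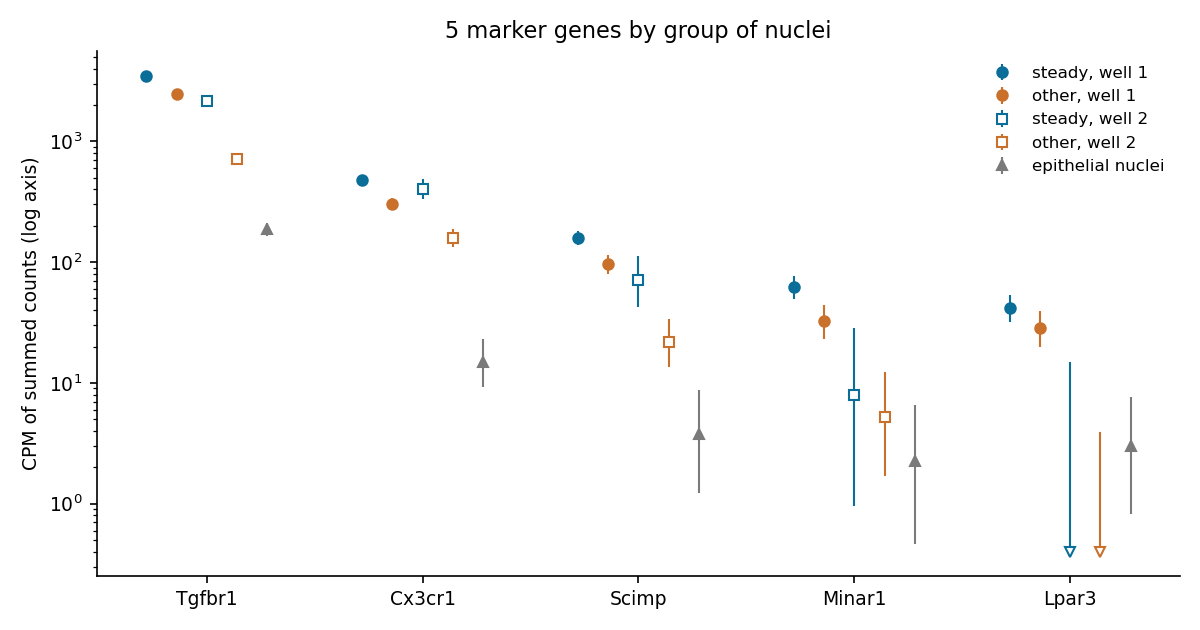
CPM of the 5 marker genes on a log axis, from counts summed over steady and other nuclei of each well and over epithelial nuclei, with exact 95% intervals. Tgfbr1 and Cx3cr1 are higher in steady than in other nuclei of both wells, Scimp rests on 18 and 21 UMIs in well 2, and open triangles mark Lpar3 at 0 UMIs in well 2.

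The promoters of the markers are shown because the genes were chosen as a set that is higher together in one state of a PU.1-dependent cell. RefSeq (GRCm38.p6) gave 5 promoter windows of 300 bases for 4 of the 5 genes; Scimp is named only. Each was searched on both strands for the PU.1 core GAGGAA and the AP-1 site TGANTCA, which 28.3% and 7.81% of 32851 RefSeq promoter windows hold. The PU.1 core occurred in 2 windows, and the AP-1 letters in none of the 5. Capitals mark the core, which in Minar1 lies on the opposite strand, and the Cx3cr1 window, without either motif, is given beside them. The windows of Lpar3 and of the first Tgfbr1 start also hold neither motif and are not printed.
Tgfbr1, second start, chr4:47385966-47386265, plus strand: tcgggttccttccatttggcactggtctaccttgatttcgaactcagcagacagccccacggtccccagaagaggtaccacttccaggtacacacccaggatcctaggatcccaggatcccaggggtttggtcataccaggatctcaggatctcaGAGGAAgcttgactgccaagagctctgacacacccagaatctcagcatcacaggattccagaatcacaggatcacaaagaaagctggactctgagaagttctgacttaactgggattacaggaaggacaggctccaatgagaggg
Minar1, chr9:89622937-89623236, minus strand: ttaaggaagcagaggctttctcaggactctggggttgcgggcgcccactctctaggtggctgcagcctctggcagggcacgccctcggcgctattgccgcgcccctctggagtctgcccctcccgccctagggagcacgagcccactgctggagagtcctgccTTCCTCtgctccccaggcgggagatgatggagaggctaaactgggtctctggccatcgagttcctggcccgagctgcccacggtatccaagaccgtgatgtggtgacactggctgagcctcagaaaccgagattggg
Cx3cr1, chr9:120068247-120068546, minus strand: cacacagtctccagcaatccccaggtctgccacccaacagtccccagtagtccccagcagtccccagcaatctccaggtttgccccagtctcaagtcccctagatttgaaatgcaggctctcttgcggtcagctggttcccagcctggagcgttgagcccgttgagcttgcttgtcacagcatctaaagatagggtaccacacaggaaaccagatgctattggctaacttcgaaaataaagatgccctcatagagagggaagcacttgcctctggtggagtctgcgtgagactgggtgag
A match is a run of letters and not a measured binding site.

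Over all genes with 50 or more UMIs, 12.8% of 8034 were at least 1.5-fold higher in steady nuclei pooled over wells and 12.8% at least 1.5-fold lower. Within well 1 these shares were 16.6% higher and 11.4% lower of 6883 genes, and within well 2 they were 12.3% higher and 14.7% lower of 4669 genes. Scaled to the median gene of well 1, the shares of that well became 7.61% higher and 15.9% lower, so counts of higher genes depend on the scaling more than counts of lower genes. Against the 205 nuclei over the stress limit only, the shares in well 1 were 25.4% higher and 11.4% lower of 6083 genes. Counts of list members below are for well 1 at 1.5-fold and stand against 16.6% and 11.4%.

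Of the 32 gene lists, heat shock, immediate early and NF-kB genes had the lowest ratios in well 1, also without the genes that the rule names. Heat shock genes outside the rule summed to 1862 CPM in steady nuclei of well 1, against 8300 CPM in other nuclei (ratio 0.224, 0.215 to 0.234), and 13 of the 14 were at least 1.5-fold lower. The chaperone Hsp90aa1 had 475 CPM in steady and 3046 CPM in other nuclei. The co-chaperone Dnajb1 had 21.9 and 204, and the co-chaperone Bag3 had 70.6 and 356. Hspa1a and Hspa1b, near-identical Hsp70 copies whose reads cannot be split with certainty, had 165 and 179 CPM in steady nuclei, against 902 and 807 in other nuclei. Hspa4 was the member not past 1.5-fold, at 157 and 217 CPM.

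Immediate early genes outside the rule summed to 1555 CPM in steady and 6352 CPM in other nuclei of well 1 (ratio 0.245, 0.233 to 0.257), with 16 of 16 measured members at least 1.5-fold lower. Fos had 193 CPM in steady and 851 CPM in other nuclei, Egr1 had 82.7 and 535, and Btg2, an inhibitor of proliferation, 96.8 and 688. Dusp1, a phosphatase that switches off MAP kinases, had 104 and 530 CPM. The rule chose nuclei on 5 genes of the same kinds, so these lower levels are no separate support for it.

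NF-kB and inflammatory genes summed to 2114 CPM in steady and 6142 CPM in other nuclei of well 1 (ratio 0.344, 0.330 to 0.359), with 16 of 19 at least 1.5-fold lower and 0 higher. Cxcl2, a chemokine for neutrophils, had 34.6 CPM in steady and 390 CPM in other nuclei, the cytokine Il1b 199.9 and 799.5, and Tnf 50.2 and 235. Nlrp3, the inflammasome sensor, had 72.8 and 386 CPM, and Tnfaip3, a brake on NF-kB, 84.8 and 362. Of the subunits of NF-kB itself, Nfkb1 had 540 and 934 CPM (ratio 0.578) and Rel 240 and 424 CPM (ratio 0.566), both past 1.5-fold, while Nfkb2, Rela and Relb had ratios of 0.80, 0.72 and 0.82 and stayed inside it.

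In well 2, where most other nuclei were of the resident type, the ratios were nearer to 1. Heat shock genes summed to 2742 CPM in steady and 3466 CPM in other nuclei (ratio 0.791), immediate early genes to 2531 and 5027 CPM (ratio 0.504), and NF-kB genes to 2416 and 2837 CPM (ratio 0.852). Il1b had 131 CPM in steady and 120 CPM in other nuclei there, and Hsp90aa1 928 and 944.

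Nuclei of well 1 that met every other limit were also set in order of their stress UMIs. With 0, 1, 2 to 3 and 4 to 5 stress UMIs, all within steady, there were 217, 113, 77 and 31 nuclei, and beyond the limit, with 6 to 8, 9 to 15 and 16 to 85, there were 42, 56 and 107. Heat shock genes outside the rule stood at 1159, 1648, 2805 and 4397 CPM within steady and at 8282, 9206 and 14084.5 CPM beyond. Steady nuclei near the limit were thus between the extremes.

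The 5 markers stood at 4321, 4437, 4157 and 2724 CPM in the same 4 steady bins, and at 3376, 3298 and 2856 CPM beyond the limit. Ciita stood at 479, 409, 339 and 198 CPM within steady and at 157, 290 and 219 CPM beyond. Vcam1, the adhesion molecule used in the sort, stood at 171, 122, 161 and 267 CPM within steady and at 297, 411 and 362 CPM beyond. The highest marker and Ciita levels were in nuclei with few or no stress UMIs, and Vcam1 ran the other way. The bin of 4 to 5 UMIs held only 31 nuclei and lay below the next bin for the marker sum.

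**Figure D3:**
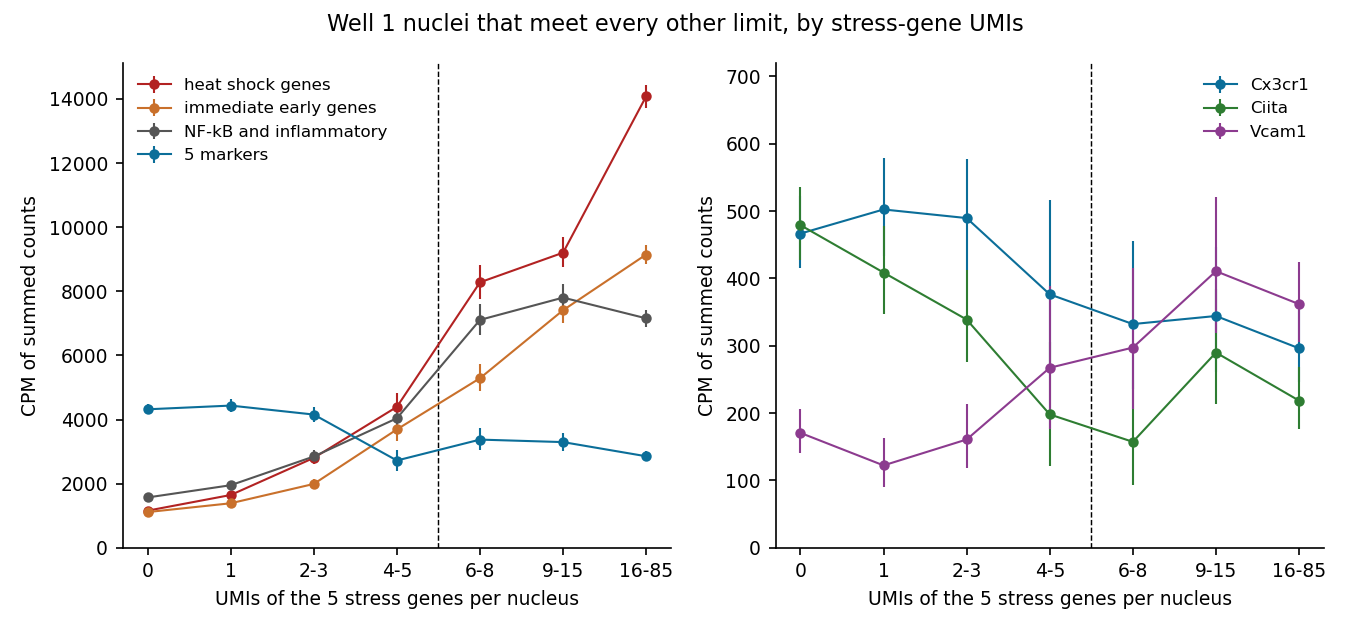
CPM of gene lists and genes, with exact 95% intervals, in well 1 nuclei that meet all limits but the stress limit, by UMIs of the 5 stress genes; steady nuclei are left of the dashed line. Heat shock genes are at 1159 CPM in nuclei with 0 stress UMIs and at 14084.5 CPM in those with 16 or more.

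MHC class II and antigen presentation genes in steady nuclei stood close to their level in stressed nuclei and above that in resident-type nuclei. Steady nuclei of well 1 had 6356 CPM and nuclei over the stress limit only 6161, while steady nuclei of well 2 had 7400 CPM and nuclei over the resident limit only 4207. Against all other nuclei of well 1, at 5774 CPM, the ratio was 1.10 (1.07 to 1.13), which is 0.96 relative to the median gene, so no direction is given for it. Against all other nuclei of well 2, at 4052 CPM, it was 1.83 (1.73 to 1.93), and 7 of 7 measured members were at least 1.5-fold higher, as were 12.3% of all genes in well 2. H2-Aa, a class II chain, had 1036 CPM in steady and 922 CPM in other nuclei of well 1, and 1547 and 815 CPM in well 2. Cd74, the invariant chain, had 2149 and 2206 CPM in well 1, and 2004 and 1159 CPM in well 2. Both genes were thus close between groups in well 1 and apart in well 2.

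Ciita, the master activator of class II genes, differed in both wells. It had 411 CPM in steady and 228 CPM in other nuclei of well 1 (ratio 1.80, 1.56 to 2.08), and 413 and 234 CPM in well 2 (ratio 1.76). H2-DMb1, which helps load peptides, had 124 CPM in steady and 81.1 CPM in other nuclei of well 1 (ratio 1.53). These were the 2 members of the list past 1.5-fold in well 1, and relative to the median gene only Ciita was past it.

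Genes that microglia keep under TGF-beta were divided. Together with receptors and SMAD genes, 16 measured genes summed to 5161 CPM in steady and 5089 CPM in other nuclei of well 1 (ratio 1.01, and 0.89 relative to the median gene), with 2 higher and 2 lower, and to 4099 and 2822 CPM in well 2 (ratio 1.45). P2ry12, a receptor for ADP, had 290 CPM in steady and 171 CPM in other nuclei of well 1 (ratio 1.70, 1.44 to 2.01), and 202 and 137 CPM in well 2. Tmem119, a microglial surface protein, had 142 and 76.3 CPM in well 1 (ratio 1.86, 1.45 to 2.40), and 167 and 37.7 CPM in well 2 (ratio 4.43). Both were higher in steady nuclei of both wells.

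Among inhibitors of the pathway, Smad7 and Skil did otherwise in well 1, while Ski was near equal. The Ski ratio there was 1.06 (0.982 to 1.15) without the 2 nuclei over 20000 UMIs. Smad7 had 100.3 CPM in steady and 210.1 CPM in other nuclei of well 1 (ratio 0.477, 0.387 to 0.587), and Skil had 411 and 642 CPM (ratio 0.640). In well 2 Smad7 was the higher in steady nuclei, at 202 against 96.2 CPM (ratio 2.10), and Skil had 373 and 314 CPM. Tgfbr2, the ligand-binding partner of Tgfbr1, was near equal, at 602 and 560 CPM in well 1 and 373 and 371 CPM in well 2. Smad3 had 171 and 246 CPM in well 1 (ratio 0.694), and Smad4 179 and 136 CPM (ratio 1.32). The higher Tgfbr1 of steady nuclei was thus not shared by Tgfbr2 in either well.

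Among the 19 macrophage genes outside the rule, which summed to 4232 CPM in steady and 4687 CPM in other nuclei of well 1 (ratio 0.903), 1 was higher and 4 were lower. Fcgr1, the high-affinity IgG receptor whose cre labelled the nuclei, had 69.2 CPM in steady and 45.6 CPM in other nuclei of well 1 (ratio 1.52, 1.08 to 2.14), and 103 and 53.3 CPM in well 2. Cd14, a co-receptor for endotoxin, had 48.0 and 153.5 CPM in well 1 (ratio 0.313), and Cd68, a lysosomal protein of macrophages, 42.4 and 66.1 CPM (ratio 0.641). Vcam1 had 163 and 321 CPM in well 1 (ratio 0.506), and 35.7 and 80.5 CPM in well 2 (ratio 0.444). At equal depth 11.6% of steady and 20.7% of other nuclei in well 1 held a Vcam1 UMI. In well 2 the shares were 4.40% (1.21 to 10.9%) and 6.05% (3.42 to 9.78%), with overlapping intervals. The RNA of the sort marker was thus at lower levels in steady nuclei of well 1. In well 2 its lower CPM rests on UMIs in 8 of 91 steady nuclei.

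Costimulation and checkpoint genes summed to 2701 CPM in steady and 4257 CPM in other nuclei of well 1 (ratio 0.634, 0.609 to 0.661), with 1 of 10 higher and 4 lower, but to 2674 and 2412 CPM in well 2 (ratio 1.11). Cd86, a ligand of CD28 on T cells, made up most of the gap, with 1015 CPM in steady and 2655 CPM in other nuclei of well 1 (ratio 0.382, 0.359 to 0.407), against 679 and 748 CPM in well 2. At equal depth 26.4% of steady and 39.9% of other nuclei in well 2 held a Cd86 UMI. There 5 steady nuclei held 50.9% of the Cd86 UMIs of their group, so the near-equal CPM rests in part on few nuclei. Cd40, Cd80 and Cd274, the ligand PD-L1, were the other 3 lower members. Vsir, the checkpoint protein VISTA, was the higher member, with 220 and 146 CPM in well 1 (ratio 1.51), and 294 and 387 CPM in well 2.

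Lipid-associated genes were lower in steady nuclei of both wells. They summed to 3522 CPM in steady and 4515 CPM in other nuclei of well 1 (ratio 0.780), with 6 of 13 lower and 0 higher, and to 4979 and 6524 CPM in well 2 (ratio 0.763). Plin2, which coats lipid droplets, had 79.1 and 215 CPM in well 1 (ratio 0.368), and 301.5 and 684 CPM in well 2 (ratio 0.441). Cd36, a receptor for oxidised lipid and dying cells, had 103 and 268 CPM in well 1, and Lgals3 280 and 612 CPM. Apoe, the lipid carrier, was near equal in well 1, at 1456 and 1512 CPM.

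Lysosomal genes summed to 9616 CPM in steady and 11109.9 CPM in other nuclei of well 1 (ratio 0.866), with 1 of 25 higher and 3 lower, and to 12537.9 and 12798.3 CPM in well 2 (ratio 0.980). The protease Ctsb had 860 and 1457 CPM in well 1 (ratio 0.590), Lgmn, a protease that matures other lysosomal enzymes, 1194 and 1998 CPM (ratio 0.598), and Ctsl 27.6 and 53.5 CPM (ratio 0.515). Ctsb and Lgmn did not keep this in well 2, where their ratios were 1.10 and 1.12. Ctsh had 333 and 213 CPM in well 1 (ratio 1.56, 1.34 to 1.82) and a ratio of 1.46 in well 2, and Ctss, a cathepsin of antigen processing, a ratio of 1.29 in well 1 and 1.26 in well 2. The cathepsins thus went in both directions.

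The diet restricts amino acids, and genes that sense, import and respond to them were read in the same way. The ATF4 response, which cells use when amino acids run short, summed to 714 CPM in steady and 1030 CPM in other nuclei of well 1 (ratio 0.693, 0.637 to 0.753), with 1 of 11 higher and 5 lower, and to 865 and 1356 CPM in well 2 (ratio 0.638). The sum of the list was thus lower in steady nuclei of both wells, but not each member was. Without the 2 nuclei over 20000 UMIs, Gars had a ratio of 1.44 (1.02 to 2.07) in well 1. Aars had 1.75 there, with an interval (0.985 to 3.20) that includes 1. Asns, Chac1 and Trib3 were seen in only 0, 0 and 2 steady nuclei of well 1. Atf4 itself had 62.2 and 105 CPM in well 1, and Cebpb, its frequent partner, 105 and 230 CPM. Slc7a11, the cystine importer, had 27.6 and 79.5 CPM, and its partner chain Slc3a2 74.9 and 135 CPM.

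Amino-acid transporters summed to 2086 CPM in steady and 2550 CPM in other nuclei of well 1 (ratio 0.818), with 2 of 16 higher and 5 lower, and had a ratio of 1.13 in well 2. The glutamine importers Slc38a1 and Slc38a2 had 86.9 and 74.9 CPM in steady nuclei of well 1, against 241 and 230 CPM in other nuclei. The FLCN, Rag and TFE genes, which report lysosomal amino acids, had a ratio of 0.895 in well 1, with 1 of 10 higher and 1 lower, and 0.756 in well 2. mTORC1 genes and their switches summed to 1789 and 1608 CPM in well 1, a ratio of 1.11 that became 0.97 relative to the median gene. Slc38a9, the lysosomal arginine sensor, was 1 of the 2 past 1.5-fold, at 159 and 95.2 CPM (ratio 1.67, 1.33 to 2.10). No sample without the diet was analysed here, so these values describe states within the diet.

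Receptors and bridges for dying cells summed to 8131 CPM in steady and 6920 CPM in other nuclei of well 1 (ratio 1.18, and 1.03 relative to the median gene), and to 8011 and 6543 CPM in well 2 (ratio 1.22). Of the 13 measured, 1 was higher and 1 lower. Elmo1, which activates Rac during engulfment, had 3216 and 2535 CPM in well 1 (ratio 1.27), and 2916 and 1749 CPM in well 2 (ratio 1.67). Axl, a receptor for the bridging protein Gas6, had 420 and 334 CPM in well 1 (ratio 1.25), and 266 and 130 CPM in well 2 (ratio 2.05).

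Interferon-induced genes went both ways in well 1, with 3 of 15 higher and 4 lower. Their sum was 2111 CPM in steady and 1957 CPM in other nuclei, a ratio of 1.08 that became 0.94 relative to the median gene, and the well 2 ratio was 1.17. Stat2, a transcription factor of the response, had 194 and 120 CPM in well 1 (ratio 1.62, 1.33 to 1.99), and 155 and 131 CPM in well 2. Rsad2 had 84.8 and 177 CPM in well 1, and Cxcl10, a chemokine for T cells, 17.7 and 45.6 CPM.

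Division genes were sparse in both groups. Mki67, the proliferation antigen, had 35.3 CPM in steady and 66.9 CPM in other nuclei of well 1 (ratio 0.528), while Anln and Hells, of cytokinesis and DNA methylation, had ratios of 2.57 and 2.05. The list had 4 of 10 higher and 1 lower, and its summed ratio of 1.13 became 0.99 relative to the median gene. Hypoxia and glycolysis genes had a ratio of 0.814 in well 1, with 5 of 17 lower, and 1.11 in well 2, and Vegfa, the vessel growth factor, had 24.0 and 61.4 CPM in well 1. Phosphodiesterases had a ratio of 0.679 in well 1 and 0.844 in well 2, and Pde4b, which degrades cyclic AMP, had 144 and 426 CPM in well 1. The ratio of Pde4d was 0.213, and 0.662 without the 2 nuclei over 20000 UMIs. Resident and scavenger genes outside the rule had ratios of 1.14 in well 1, or 0.996 relative to the median gene, and 0.436 in well 2, and monocyte genes 0.970 and 0.404. The rule limits resident genes of the same kind, so the 0.436 is no separate support for it.

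**Figure D4:**
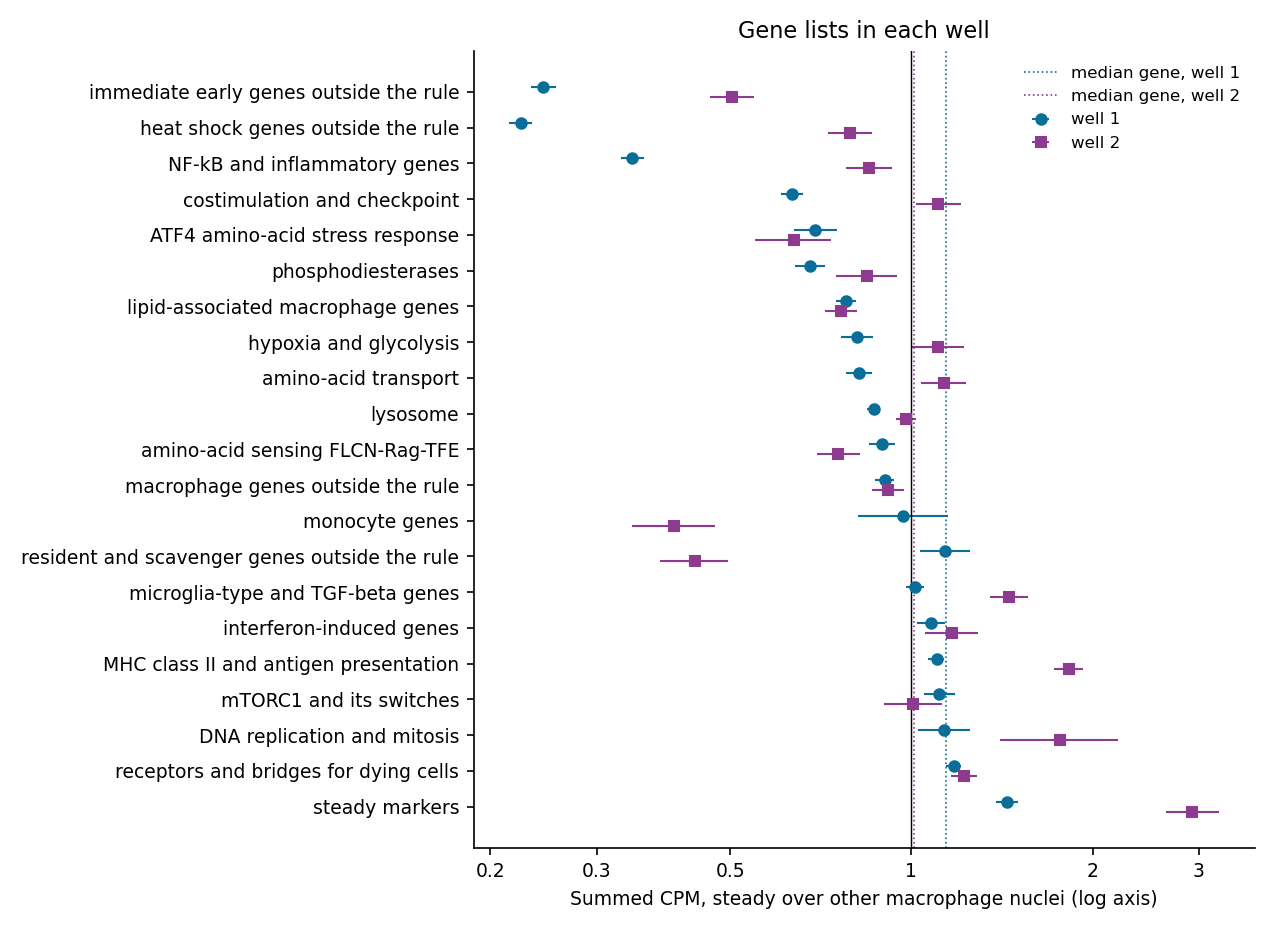
Ratio of summed CPM in steady over other macrophage nuclei for 21 gene lists on a log axis, in well 1 (circles) and well 2 (squares), with 95% intervals; dotted lines mark the median gene. Stress and inflammatory lists are far below 1 in well 1 and nearer to it in well 2, and the 5 markers are above 1 in both.

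Gene by gene, the ratios of the 2 wells were set side by side for genes with 50 or more UMIs in each well. Of all 4568 such genes, 38.2% were above 1 in both wells, 21.0% below 1 in both and 40.9% on opposite sides. Among them, 6 of 7 class II genes were above 1 in both wells, 7 of 10 heat shock genes below 1 in both, and 12 of 17 NF-kB genes below 1 in both. Of 24 lysosomal genes, 5 were above 1 in both, 12 below in both, and 7 on opposite sides. Of 9 costimulation and checkpoint genes, 4 were on opposite sides.

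**Figure D5:**
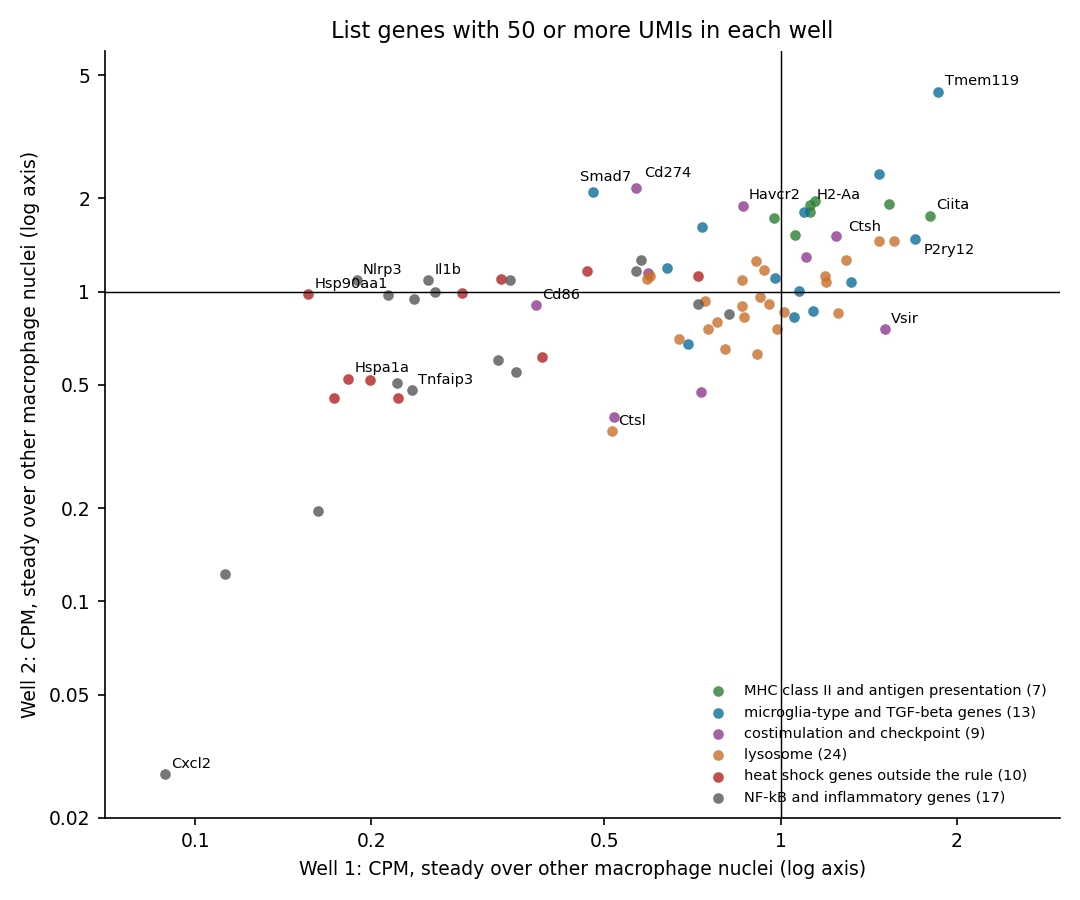
Each point is a gene of 6 lists with 50 or more UMIs in each well, by its ratio of CPM in steady over other nuclei in well 1 (x) and well 2 (y), both on log axes. Tmem119, P2ry12 and Ciita lie above 1 in both wells, Cxcl2 below 1 in both, and Smad7 and Cd274 on opposite sides.

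Ranked by the interval bound nearest to 1, the 15 genes highest in steady nuclei of well 1 included Ms4a4c, Flot2, Polk, Klhl6, Zfp385a, Mppe1, Lmln, P2ry6, Mettl1, Pex19, Zfp169, Armc1, Bmf and Dram2. Klhl6, a kelch protein known from lymphoid cells, had 289 CPM in steady and 123 CPM in other nuclei (ratio 2.35, 1.95 to 2.85). P2ry6, the receptor for UDP, had 235 and 105 CPM (ratio 2.25, 1.83 to 2.77), and Dram2, a lysosomal membrane protein of autophagy, 349 and 169 CPM (ratio 2.06, 1.75 to 2.43). These 3 were spread over many nuclei, 201, 198 and 248 of the 438. Ms4a4c has close relatives in its gene family, so its value is uncertain.

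The 15 lowest included Pde4c, Cxcl2, Ifrd1, Grasp, Mpp7, Dnajb1, Btg2, Hsp90aa1, Slc5a3, Epha7, Ccrl2, Egr1, Ptprt and Lsamp. Ifrd1, a transcriptional co-regulator, had 130 CPM in steady and 1243 CPM in other nuclei (ratio 0.105, 0.0893 to 0.122), and Mpp7, a polarity scaffold, 110 and 858 CPM (ratio 0.129). Some of these rested on 1 nucleus of the other group: 81.1% of Pde4c and 74.4% of Epha7 UMIs there sat in a single one. Without the 2 nuclei over 20000 UMIs, the ratio was 0.496 for Epha7, 0.227 for Ptprt and 0.159 for Lsamp.

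Against the 136 nuclei of well 2 that exceeded the resident limit only, the steady nuclei there had 3.47 times the marker sum and 1.76 times the class II sum. Resident and scavenger genes outside the rule were at 0.280 times. The rule set these groups apart by genes of the same kind, so that ratio is no separate support for it. Pmepa1, a TGF-beta-induced inhibitor of SMAD signalling, had 1079 CPM in steady and 164 CPM in resident-type nuclei, and Smad7 202 and 33.7 CPM. Negr1 and Apbb2 had 401 and 413 CPM in steady nuclei, against 25.3 CPM each in resident-type nuclei. Ccl6, a macrophage chemokine, had 59.5 and 758 CPM, and Gda, guanine deaminase, 325 and 1879 CPM. In well 1 Pmepa1 was near equal, at 2500 CPM in steady and 2542 CPM in other nuclei. Pmepa1 and Smad7 were among the highest-ranked genes of this comparison, so they do not stand for all inhibitors of TGF-beta signalling. Of the receptor pair, Tgfbr2 was near equal between steady and all other nuclei of well 2.

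Against the 37 nuclei of well 1 that exceeded the Gpnmb or Mmp12 limits only, class II genes were 1.66 times as high in steady nuclei, and Ciita 3.88 times, at 411 and 106 CPM. The ATF4 list had a ratio of 0.525. One of the 37 nuclei held 46519 of their 207515 UMIs and enters all of these ratios. Single genes low in steady nuclei there, such as Epha7 with 4.95 and 284 CPM, partly describe that nucleus. Its part in the class II, Ciita and ATF4 ratios was not tested.

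Steady nuclei also differed between wells. Frmpd4, a synaptic scaffold gene, had 543 UMIs in steady nuclei of well 1 and 0 in those of well 2, and Csn3 327 and 7.94 CPM. Gda had 12.0 CPM in well 1 and 325 in well 2, Fn1, fibronectin, 7.77 and 194 CPM, and Ccr2, the receptor that brings monocytes into tissue, 31.1 and 270 CPM. The same genes separated the wells in other nuclei too: Ccr2 had 30.7 CPM there in well 1 and 481 in well 2. Genotype, the sex of the nuclei and the library cannot be told apart between the wells.

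Among the 438 steady nuclei of well 1, thinned to 1000 UMIs each, the variance over the mean had a median of 1.13 across 2178 genes, where counting alone gives about 1, and 43 genes reached 2. The most variable were Hsp90aa1 (7.90), Prkca (7.68), Auts2 (7.32), Mpp7 (6.62), Malat1 (6.53), Frmpd4 (4.27), Jdp2 (4.01) and Nfib (3.93). For Prkca, Auts2, Mpp7 and Nfib 5 nuclei held 51.7%, 56.1%, 61.8% and 50.9% of the UMIs. Hsp90aa1 held 30.6% of its UMIs in 5 nuclei and was seen in 95. Among the 91 steady nuclei of well 2 the median was 1.51 across 267 genes, of which 54 reached 2, led by Srgn (7.00), Malat1 (6.29), Hsp90aa1 (5.52), Slc43a2 (4.89) and Cd86 (4.11). A heat shock gene was thus among the most variable in each well even inside the stress limit.

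In 3 depth groups of well 1 (146 steady nuclei each, 1002 to 2291, 2326 to 3567 and 3602 to 12066 UMIs), the 5 markers were at 4143, 4305 and 4168 CPM. Heat shock genes stood at 3252, 1774 and 1463 CPM from the shallow to the deep group, and class II genes at 5241, 5775 and 7044 CPM. A limit in UMIs admits a higher CPM of stress genes in a shallow nucleus, and the shallow group had the highest level. The marker sum differed little between the depth groups.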

How the data were processed

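The authors deposited 1 matrix of UMI counts for 32285 genes and 1838 barcodes, pooled over 2 wells, with 7381447 UMIs in all. Per the submitters' processing notes, Cell Ranger 5.0 and mouse build mm10 were used; per the file headers, version 5.0.1 of the software wrote the matrix. Neither the counting of introns nor the calling of barcodes is given in the sources used here.

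Nuclei were selected by the rule above, and counts were summed per group and well and divided by the group's total (CPM). Ratios have conditional binomial intervals, CPM exact Poisson intervals and shares Clopper-Pearson intervals. Genes needed 50 UMIs over both groups, and a fold of 1.5 marks size only. Shares and variances were computed after thinning to 1000 UMIs. The method was tested on simulated data. The members and the gene lists were chosen with earlier results of these data known. The genes named are the given markers, the 15 highest and 15 lowest by the interval bound nearest to 1, the most abundant list members and those past the fold, and the 10 most variable. Genes named from the other comparisons were chosen after their values were seen, and some genes that the choice names are not reported here. Positions are from GENCODE (32158 IDs matched) and promoters from RefSeq. Scipy 1.17.1 and scanpy 1.11.5 were used.

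The alternatives were limits scaled to depth, 1000 to 3000 UMIs only, other stress and epithelial limits, nuclei over 20000 UMIs or called doublets left out, thinning, mean CPM, median-of-ratios scaling and no gene minimum. Well 2 alone and, for lists, both wells pooled were chosen after seeing the data.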

Additional observations from a re-analysis of the deposited data

Results flagged for a closer look

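Some results pointed in opposite directions in the 2 wells, with intervals on either side of 1. With 1 library per well these differences were not tested, and the other nuclei are mainly stressed in well 1 and mainly resident-type in well 2. Smad7, an inhibitor of TGF-beta signalling, had a ratio of steady over other nuclei of 0.477 in well 1 and 2.10 in well 2. Cd274, the checkpoint ligand PD-L1, had 0.565 in well 1 and 2.17 in well 2. Tgm2, a transglutaminase, had 0.243 in well 1 and 1.58 in well 2. Abca9, a lipid transporter, had 1.60 in well 1 and 0.409 in well 2. Ms4a4a, a membrane protein with close relatives in its family, had 1.92 in well 1 and 0.451 in well 2. B cell markers, mostly Ighm, had 1.95 in well 1 and 0.351 in well 2. A group of 8 measured genes that had led a cluster of these nuclei in an earlier grouping, among them Trim55 and Nav1, had 1.90 in well 1 and 0.619 in well 2, where most of their UMIs were Nav1. The 2 wells also differ in the kind of other nuclei, in Xist and Uty, and in depth, and the part of each in these values was not tested.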

How the results depend on the processing

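The number of steady nuclei and their shares moved with the limits. Nuclei of 1000 to 3000 UMIs gave 289 members, 61.2% of macrophage nuclei in well 1 and 37.0% in well 2. A stress limit of 2 gave 49.2% in well 1 and 20.9% in well 2, and limits scaled to depth 20.1% in well 2; well 2 alone holds 91 members. The marker ratio of 1.94 was 1.44 in well 1 alone, 2.93 in well 2 alone, 1.85 with scaled limits, 1.77 at 1000 to 3000 UMIs, 1.852 by mean CPM per nucleus and 1.80 by median-of-ratios scaling. After thinning, 19.7% of genes were at least 1.5-fold higher, and with no minimum of UMIs 31.3% were at least 1.5-fold lower. The other 36 values of these 6 results moved little; leaving out doublet calls removes 0 steady nuclei, says nothing on stability and is not counted.

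The well 1 ratios of lists and named genes had 815 values under alternatives, again without the doublet setting. Of these, 514 stayed within the interval of the main value and 277 moved outside it. Ratios past 1.5-fold changed direction in 24 values, given here, and ratios inside it crossed 1 in 37. In well 2 alone the ratios were 1.11 for costimulation genes, 0.422 for T cell, 0.351 for B cell and 1.08 for neutrophil markers, and 0.619 for the genes of the earlier cluster, which were at 0.764 with both wells pooled. Also in well 2, Flot2 was at 0.793, Mppe1 at 0.593, Lmln at 0.678, Armc1 at 0.920, Grasp at 4.43, Lsamp at 1.52, Lgmn at 1.12, Ctsb at 1.10 and Epha7 at 3.79. Epha7 was at 2.62 with scaled limits, and T cell markers at 0.362 with an epithelial limit of 300 CPM. Mast cell markers, mostly Kit, were at 1.64 with scaled limits, 1.10 at 1000 to 3000 UMIs, 1.06 without nuclei over 20000 UMIs, 1.32 by mean CPM, 1.63 with the lower epithelial limit, 1.54 after thinning and 1.90 in well 2. The cause of these changes was not tested.

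Each well is 1 library with no map to genotype, so no replicate was left out. Depth limits any gene of few UMIs, above all in well 2, where steady nuclei hold 252036 UMIs in all. Minar1 and Lpar3 were also seen in smaller shares of well 2 nuclei at equal depth. For Minar1 the shares were 5.48% of steady and 2.66% of other nuclei in well 1, and 0% and 0.403% in well 2. For Lpar3 they were 3.20% and 3.25% in well 1, and 0% in both groups of well 2. The cause was not tested.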

Other observations

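Genes were also divided by length in well 1, since unspliced RNA of long genes is readily captured in nuclei. Of 3 groups of genes with median lengths of 12.6, 36.6 and 107 kb, 18.1%, 20.5% and 10.4% were at least 1.5-fold higher in steady nuclei, and 12.95%, 8.20% and 12.8% at least 1.5-fold lower. Higher genes were thus fewest among the longest.

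Some of the genes highest in steady nuclei pooled over wells are given here by well. Itga8, an integrin chain, had 145.5 CPM in steady and 75.6 CPM in other nuclei of well 1 (ratio 1.93, 1.505 to 2.48), and 3 and 1 UMIs in well 2. Kynu, an enzyme of tryptophan breakdown, had 217 and 118 CPM in well 1 (ratio 1.84), and 10 and 28 UMIs in well 2, where the interval of the ratio (0.587 to 2.87) includes 1. Lpcat2, an enzyme that makes platelet-activating factor, had 870 and 514 CPM in well 1, and 405 and 166 CPM in well 2. Lpcat2 was higher in steady nuclei of each well, with ratios of 1.69 in well 1 and 2.43 in well 2.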
